A study of Mus musculus with 8 samples.

Results

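Cell cycle and DNA replication genes were examined in mouse liver, as a set of 38 genes chosen by name for their role. The set held 7 G1 cyclins and kinases, 3 inhibitors of cyclin-dependent kinases (CDKs), 12 genes of S phase and DNA replication, and 16 genes of G2 and mitosis. Of these, 33 had a named probe among the 16593 genes of the array, and 27 were bright enough to be tested among 9760 genes. Cdk4, Cdkn3, Ccnb1, Aurkb and Mki67 were not analysed here. The study gave male Fxr-/- and Fxr+/+ mice, aged 10 to 12 weeks, GW4064 or vehicle by gavage, to find hepatic genes regulated by FXR. FXR is the bile acid receptor encoded by Nr1h4, and GW4064 is a synthetic agonist of it. The groups were Fxr-/- mice on GW4064, Fxr-/- mice on vehicle, Fxr+/+ mice on GW4064 and Fxr+/+ mice on vehicle. The dose of GW4064 was 30 mg/kg, taken 2 times daily over 7 days. Each group had 2 Illumina bead arrays, and each array held a pool of 3 to 4 livers. The column of Fxr-/- vehicle replicate 2 held values that track no other array (highest Spearman correlation 0.0559) and was left out. The Fxr-/- vehicle group therefore rests on 1 array, which the fit assumes to vary like the others. The sources used here do not give whether the deletion covers the whole body or the liver alone.

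D-type cyclins bind CDK4 and CDK6 in G1 and lead, through phosphorylation of the retinoblastoma protein, to release of E2F transcription factors. E2F drives genes of nucleotide synthesis and of the MCM helicase, which is loaded on replication origins before S phase. Later genes, such as Cdk1, Plk1 and Aurka, peak in G2 and mitosis, and many of their promoters carry a cell cycle homology region (CHR) near CCAAT boxes. CDK inhibitors such as p21, the product of Cdkn1a, restrain these kinases. Most hepatocytes of an adult liver are quiescent and re-enter the cycle after injury or resection.

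The arrays carried a signal per probe on a linear scale, already background-subtracted, with no detection calls. The most negative value was -39.5, so a signal under 39.5 is called within the background range. The Nr1h4 probe gave 2048.3 and 1851.9 in Fxr-/- GW4064 livers and 3271.6 in Fxr-/- vehicle livers, against 3327.7 and 3483 in Fxr+/+ GW4064 livers and 3958.8 and 4411.4 in Fxr+/+ vehicle livers. It was lower on every array labelled Fxr-/- but not at background. Whether the probe lies in the deleted part of the gene is not known here, so it does not check the labels. Of 10 hepatocyte markers, 8 were above the background range on every array and the probes of Tat and Fgb were within it. The 8 ranged from dim, as Alb (81.6 to 168.7), to bright, as Apoa1 (27880.6 to 32516.3). A dim probe therefore does not show that a gene is not expressed. Tests were made with limma on log2(signal + 16), with signals below 0 set to 0, and a gene was called at an adjusted p (Benjamini-Hochberg over all 9760 genes) under 0.05. P-values measure the spread between these pools. In whole liver, fewer cells of a type and less RNA per cell cannot be told apart.

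Of the 33 genes with a probe, 17 were above the background range on every array, 9 on some arrays and 7 on none. On every array it was cleared by 3 of 13 genes of G2 and mitosis (the late genes), by 8 of 12 S phase genes and by 5 of 6 G1 genes. Ccna2, Ccnb2, Bub1, Cks2, Ube2c, Cdkn1b and Ccne2 were within it on every array, and the first 6 of these were too dim to be tested. The test took genes whose signal exceeded the median of all probes (24.0 to 24.2) on at least 2 arrays. Aurka (4 arrays), Mcm7 (3) and Ccne2 (2) did so on Fxr+/+ arrays alone, and Kif11 on 4 Fxr+/+ arrays and 1 Fxr-/- array, so that their passing the filter already favoured lower values in Fxr-/- livers and their differences are given as descriptions. Differences of genes near background are compressed by the offset of 16.

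**Figure D1:**
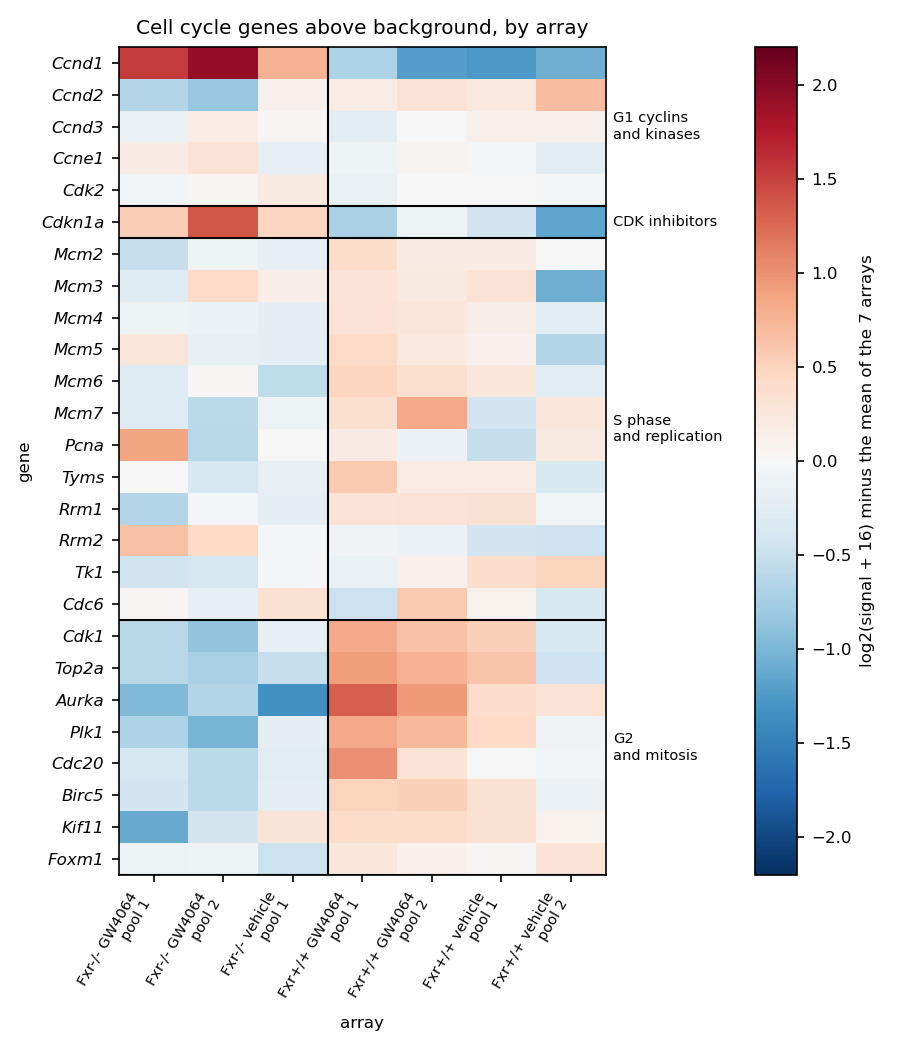
Heatmap of the 26 cell cycle genes that were above the background range on at least 1 array (rows, by role) in the 7 arrays (columns, Fxr-/- left of the line and Fxr+/+ right of it). Colour gives log2(signal + 16) minus the gene's mean over the 7 arrays, and Ccnd1 and Cdkn1a run opposite to Cdk1, Top2a, Aurka and Plk1.

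Among the G1 genes, Ccnd1 was higher in Fxr-/- livers and Ccnd2 was lower, while Ccnd3, Ccne1 and Cdk2 did not pass the test in any comparison. Ccnd1, which encodes cyclin D1, had a signal of 4984.0 and 6540.8 in Fxr-/- GW4064 livers and 2919.0 in Fxr-/- vehicle livers, against 1051.1 and 729.1 in Fxr+/+ GW4064 livers and 701.4 and 805.5 in Fxr+/+ vehicle livers. All 3 Fxr-/- arrays were above all 4 Fxr+/+ arrays. The difference was 2.68 on the log2 scale under GW4064 (SE 0.25, adjusted p = 0.000717), a 6.42-fold ratio. Under vehicle it was 1.93 (SE 0.30, adjusted p = 0.0111), a 3.82-fold ratio, and averaged over treatments it was 2.31 (SE 0.20, adjusted p = 0.000288). The other 2 probes of Ccnd1 gave 2.59 and 2.65 under GW4064 and 2.00 and 1.83 under vehicle, so all 3 probes ran the same way. The effect of GW4064 on Ccnd1 did not pass the test. It was 0.96 in Fxr-/- livers (SE 0.30, adjusted p = 0.342) and 0.22 in Fxr+/+ livers (SE 0.25, adjusted p = 1.00). Both Fxr-/- GW4064 arrays were above the single Fxr-/- vehicle array, while the Fxr+/+ groups overlapped. The difference between these effects was 0.75 (SE 0.39, adjusted p = 0.876), and their average was 0.59 (SE 0.20, adjusted p = 0.373).

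Ccnd2, the gene of cyclin D2, had 105.0 and 91.0 in Fxr-/- GW4064 livers and 186.9 in Fxr-/- vehicle livers, against 197.1 and 220.6 in Fxr+/+ GW4064 livers and 205.4 and 289.8 in Fxr+/+ vehicle livers. Both Fxr-/- GW4064 arrays lay below all the others. The Fxr-/- minus Fxr+/+ difference was -0.98 under GW4064 (SE 0.22, adjusted p = 0.0252) and -0.67 averaged over treatments (SE 0.18, adjusted p = 0.0316), but -0.36 under vehicle (SE 0.27, adjusted p = 0.464). The call under GW4064 was lost without any 1 of the 4 GW4064 arrays (adjusted p from 0.0613 to 0.157). The GW4064 effect was -0.83 in Fxr-/- livers (SE 0.27, adjusted p = 0.362) and -0.21 in Fxr+/+ livers (SE 0.22, adjusted p = 1.00), with a difference of -0.62 between them (SE 0.35, adjusted p = 0.897) and an average of -0.52 (SE 0.18, adjusted p = 0.379). Of the D cyclins, Ccnd1 and Ccnd2 thus differed between genotypes in opposite directions under GW4064, and Ccnd3 gave 0.13 (SE 0.20, adjusted p = 0.728).

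Ccnd3 and Cdk2, the kinase that cyclin E activates, were bright and varied little. Ccnd3 lay between 1016.3 and 1338.1 on the 7 arrays and Cdk2 between 999.1 and 1260.9. Ccne1, the gene of cyclin E1, lay between 66.6 and 104.2, with both Fxr-/- GW4064 arrays (93.8 and 104.2) above the other arrays. Its GW4064 effect in Fxr-/- livers was 0.42 (SE 0.23, adjusted p = 0.655). Averaged over genotypes it was 0.27 (SE 0.15, adjusted p = 0.662). Ccnd3 gave -0.23 for GW4064 in Fxr+/+ livers (SE 0.20, adjusted p = 1.00), and Cdk2 gave 0.20 for Fxr-/- against Fxr+/+ under vehicle (SE 0.22, adjusted p = 0.631). Ccne2 was within the background range throughout, and its differences, such as -0.79 between genotypes under GW4064 (SE 0.56, adjusted p = 0.398) and -1.02 between the GW4064 effects (SE 0.88, adjusted p = 0.941), are differences of background signals.

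Of the CDK inhibitors, Cdkn1a was higher in Fxr-/- livers, and Cdkn1b, the gene of p27, was within the background range with signals of 1.8 to 22.9. Cdkn1a had 2152.3 and 3850.1 in Fxr-/- GW4064 livers and 2057.1 in Fxr-/- vehicle livers, against 897.0 and 1391.0 in Fxr+/+ GW4064 livers and 1100.9 and 655.6 in Fxr+/+ vehicle livers. The 3 Fxr-/- arrays were above the 4 Fxr+/+ arrays, with a wide spread within each group. Averaged over treatments the difference was 1.31 (SE 0.29, adjusted p = 0.0178), a 2.47-fold ratio. Within a treatment it did not pass: it was 1.35 under GW4064 (SE 0.37, adjusted p = 0.0501) and 1.26 under vehicle (SE 0.46, adjusted p = 0.143). Under GW4064 it passed with median centring, an offset of 100, a stricter filter, a mean-variance trend or only the arrays compared (adjusted p from 0.0182 to 0.0493). The averaged call was lost without Fxr+/+ GW4064 replicate 1 (adjusted p = 0.0571) and with an offset of 1 (adjusted p = 0.0502). The other 2 probes gave 1.37 and 1.36 under GW4064 and 1.00 and 1.09 under vehicle. The effect of GW4064 was 0.48 in Fxr-/- livers (SE 0.46, adjusted p = 0.823) and 0.39 in Fxr+/+ livers (SE 0.37, adjusted p = 1.00). These effects differed by 0.09 (SE 0.59, adjusted p = 0.989) and averaged 0.43 (SE 0.29, adjusted p = 0.758).

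**Figure D2:**
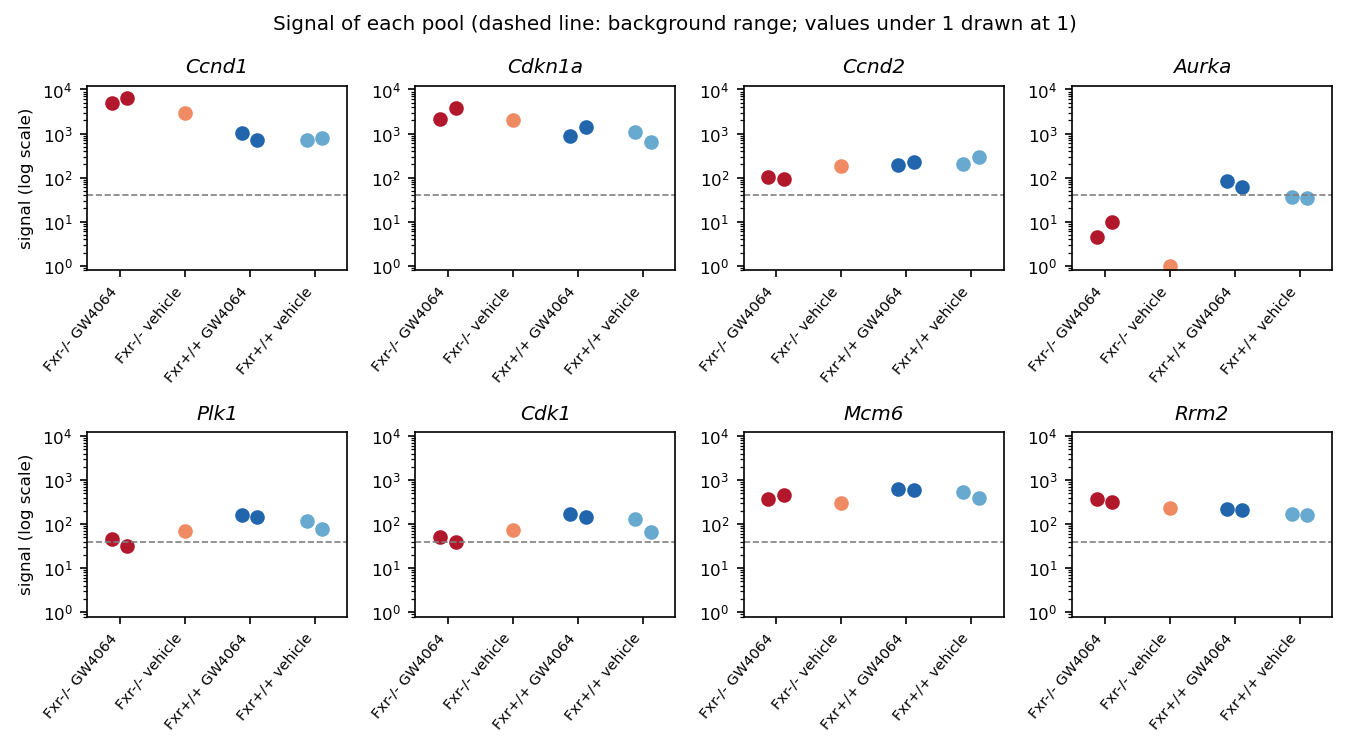
Signal (log scale) of 8 cell cycle genes in each pool, with the Fxr-/- groups left of the Fxr+/+ groups and the dashed line at 39.5, the edge of the background range. Signals under 1 are drawn at 1, and each point is 1 array. Ccnd1 was between 2919.0 and 6540.8 on the Fxr-/- arrays and between 701.4 and 1051.1 on the Fxr+/+ arrays.

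In S phase and replication, 1 of 12 genes passed the test in any comparison, and more did so under other settings. Rrm2, which encodes the regulated subunit of ribonucleotide reductase, had 370.6 and 317.3 in Fxr-/- GW4064 livers and 226.6 in Fxr-/- vehicle livers, against 218.6 and 209.0 in Fxr+/+ GW4064 livers and 167.8 and 164.5 in Fxr+/+ vehicle livers. All Fxr-/- arrays were above all Fxr+/+ arrays. Its difference averaged over treatments was 0.53 (SE 0.15, adjusted p = 0.0388), a 1.44-fold ratio, where 9.74% of all genes tested were called higher. It was 0.64 under GW4064 (SE 0.19, adjusted p = 0.0583) and 0.41 under vehicle (SE 0.23, adjusted p = 0.311), and its second probe gave 0.74 and 0.68. The averaged call was lost without any 1 of 5 arrays, with adjusted p up to 0.125, and with all probes averaged (adjusted p = 0.0528). Under GW4064 Rrm2 passed with an offset of 100, a stricter filter or a mean-variance trend (adjusted p from 0.0266 to 0.0438). The GW4064 effect on Rrm2 was 0.57 in Fxr-/- livers (SE 0.23, adjusted p = 0.484), and 0.45 averaged over genotypes (SE 0.15, adjusted p = 0.362).

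The MCM genes encode the subunits of the replicative helicase. Mcm6 had 374.6 and 465.0 in Fxr-/- GW4064 livers and 305.8 in Fxr-/- vehicle livers, against 643.4 and 587.1 in Fxr+/+ GW4064 livers and 539.2 and 385.7 in Fxr+/+ vehicle livers. Within each treatment the Fxr-/- arrays lay below the Fxr+/+ arrays, but across treatments the genotypes overlapped. The Fxr-/- minus Fxr+/+ difference of Mcm6 was -0.54 under GW4064 (SE 0.23, adjusted p = 0.167), -0.55 under vehicle (SE 0.28, adjusted p = 0.275) and -0.55 averaged (SE 0.18, adjusted p = 0.0685), which passed with an offset of 100 (adjusted p = 0.0348) and with a mean-variance trend (adjusted p = 0.0406). Mcm5 had 470.1 and 345.3 in Fxr-/- GW4064 livers and 329.4 in Fxr-/- vehicle livers, against 525.6 and 452.3 in Fxr+/+ GW4064 livers and 412.9 and 242.3 in Fxr+/+ vehicle livers. Its groups overlapped between genotypes, with differences of -0.27 under GW4064 (SE 0.29, adjusted p = 0.591), 0.05 under vehicle (SE 0.35, adjusted p = 0.943) and -0.11 averaged (SE 0.23, adjusted p = 0.770). The promoters of these 2 genes are shown because both hold the E2F letters searched for (TTTCCCGC, TTTGGCGC or TTTCGCGC). Capitals mark E2F letters and the CCAAT box, which reads ATTGG where it lies on the opposite strand. Each window runs 5′ to 3′ from 250 bases before the RefSeq start (build GRCm38.p6) to 50 bases after it. Mcm5 lies at chr8:75109259-75109558 on the plus strand and Mcm6 at chr1:128359656-128359955 on the minus strand.
Mcm5: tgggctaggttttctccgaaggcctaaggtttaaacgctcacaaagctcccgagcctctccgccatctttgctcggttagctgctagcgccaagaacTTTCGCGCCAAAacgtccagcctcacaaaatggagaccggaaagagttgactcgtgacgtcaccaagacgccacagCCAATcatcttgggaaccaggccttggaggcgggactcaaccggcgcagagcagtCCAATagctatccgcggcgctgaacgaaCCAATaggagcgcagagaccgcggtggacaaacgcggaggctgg
Mcm6: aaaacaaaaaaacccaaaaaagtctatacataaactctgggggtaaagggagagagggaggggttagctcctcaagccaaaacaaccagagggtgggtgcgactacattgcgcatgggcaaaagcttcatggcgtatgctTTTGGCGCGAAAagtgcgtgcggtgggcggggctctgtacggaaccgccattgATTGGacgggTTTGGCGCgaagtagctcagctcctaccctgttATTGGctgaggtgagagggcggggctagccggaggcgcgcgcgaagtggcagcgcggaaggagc
In both promoters an E2F match on 1 strand overlaps an E2F match on the other. Mcm6 holds another E2F match nearer the start.

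None of the other replication genes passed the test between genotypes under GW4064, and most of their differences were below 0. Mcm7 gave -1.02 (SE 0.28, adjusted p = 0.0518, or 0.0364 with only the arrays compared), where its signals of 16.7 and 10.4 in Fxr-/- GW4064 livers were within background, against 34.6 and 54.3 in Fxr+/+ GW4064 livers, so that its ratio is only bounded, at least 1.10-fold lower. Mcm2 gave -0.59 (SE 0.22, adjusted p = 0.120), and had 105.4 and 146.5 in Fxr-/- GW4064 livers, against 212.8 and 180.3 in Fxr+/+ GW4064 livers. Rrm1, the large subunit of ribonucleotide reductase, gave -0.65 (adjusted p = 0.137), Tyms, the thymidylate synthase, gave -0.58 (adjusted p = 0.191) and Mcm4 gave -0.40 (adjusted p = 0.232). Tk1, the thymidine kinase of the salvage pathway, had 256.9 and 271.2 in Fxr-/- GW4064 livers and 346.8 in Fxr-/- vehicle livers, against 318.5 and 385.2 in Fxr+/+ GW4064 livers and 470.2 and 508.2 in Fxr+/+ vehicle livers. Its GW4064 arrays lay below its vehicle arrays within each genotype. The GW4064 effect on Tk1 was -0.37 in Fxr-/- livers (SE 0.24, adjusted p = 0.720) and -0.46 in Fxr+/+ livers (SE 0.19, adjusted p = 0.978). A second Tk1 probe gave 0.27 and -0.69, so that the direction in Fxr-/- livers depended on the probe. Mcm3, Pcna and Cdc6 were above background on 6, 6 and 5 of the 7 arrays, and their genotype differences lay between -0.19 and 0.10 under GW4064.

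Most of the called genes belonged to G2 and mitosis. Of its 13 genes with a probe, 8 were tested, and 7 of these were called lower in Fxr-/- livers under GW4064. Of all genes tested, 9.15% were called lower there. The 7 were Aurka, Plk1, Cdk1, Birc5, Top2a, Cdc20 and Kif11. Aurka and Kif11 passed the filter only or mainly through Fxr+/+ arrays, as said above. Their calls are therefore descriptions and add no support to this count. The products of the 7 genes assemble the spindle, condense or untangle chromosomes, or drive entry into and exit from mitosis. Aurka, a spindle pole kinase, had 4.6 and 10.0 in Fxr-/- GW4064 livers and -1.8 in Fxr-/- vehicle livers, against 84.4 and 61.1 in Fxr+/+ GW4064 livers and 37.2 and 34.3 in Fxr+/+ vehicle livers. It was within background on every array except the 2 of Fxr+/+ GW4064. The difference was -1.93 under GW4064 (SE 0.22, adjusted p = 0.00169), at least 1.82-fold lower when background signals are set to 39.5. Under vehicle it was -1.69 (SE 0.27, adjusted p = 0.0118), where both groups were within background, so that it is a difference of background signals with no ratio, and averaged it was -1.81 (SE 0.17, adjusted p = 0.000509).

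Plk1, the polo-like kinase of mitotic entry and spindle assembly, had 45.3 and 32.2 in Fxr-/- GW4064 livers and 69.0 in Fxr-/- vehicle livers, against 159.7 and 146.0 in Fxr+/+ GW4064 livers and 117.3 and 77.7 in Fxr+/+ vehicle livers. All 3 Fxr-/- arrays were below all 4 Fxr+/+ arrays. The difference was -1.63 under GW4064 (SE 0.24, adjusted p = 0.00465), a 3.10-fold ratio with 1 of the 2 Fxr-/- GW4064 arrays within background, and -1.01 averaged (SE 0.19, adjusted p = 0.00865), but -0.39 under vehicle (adjusted p = 0.455). Cdk1, the kinase of mitotic entry, had 51.4 and 40.3 in Fxr-/- GW4064 livers and 74.2 in Fxr-/- vehicle livers, against 166.1 and 144.3 in Fxr+/+ GW4064 livers and 131.8 and 64.8 in Fxr+/+ vehicle livers. The vehicle arrays of the genotypes overlapped, and the GW4064 arrays did not. Its difference was -1.47 under GW4064 (SE 0.30, adjusted p = 0.0166), a 2.77-fold ratio, and -0.87 averaged (SE 0.23, adjusted p = 0.0347), against -0.28 under vehicle (adjusted p = 0.685). Top2a, the topoisomerase that untangles sister chromatids, had 29.8 and 26.5 in Fxr-/- GW4064 livers and 32.9 in Fxr-/- vehicle livers, against 115.4 and 102.3 in Fxr+/+ GW4064 livers and 91.1 and 34.6 in Fxr+/+ vehicle livers. Its Fxr-/- arrays were all within background, as was 1 Fxr+/+ vehicle array. The difference was -1.50 under GW4064 (SE 0.33, adjusted p = 0.0238), at least 2.75-fold lower, and -1.04 averaged (SE 0.26, adjusted p = 0.0273), against -0.59 under vehicle (SE 0.41, adjusted p = 0.420).

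The promoters of these 4 genes are shown because each holds the CHR (TTTGAA, or TTCAAA on the opposite strand) together with a CCAAT box (or ATTGG). Capitals mark these and, in Cdk1, an E2F match. The windows are those of RefSeq on GRCm38.p6, 5′ to 3′, at chr2:172370521-172370820 on the minus strand (Aurka), chr7:122159185-122159484 on the plus strand (Plk1), chr10:69352863-69353162 on the minus strand (Cdk1) and chr11:99024140-99024439 on the minus strand (Top2a).
Aurka: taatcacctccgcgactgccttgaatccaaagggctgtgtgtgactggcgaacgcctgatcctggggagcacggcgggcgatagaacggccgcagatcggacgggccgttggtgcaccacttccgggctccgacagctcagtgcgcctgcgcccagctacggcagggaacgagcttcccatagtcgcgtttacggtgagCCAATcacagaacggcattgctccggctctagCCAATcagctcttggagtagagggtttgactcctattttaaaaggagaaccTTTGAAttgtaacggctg
Plk1: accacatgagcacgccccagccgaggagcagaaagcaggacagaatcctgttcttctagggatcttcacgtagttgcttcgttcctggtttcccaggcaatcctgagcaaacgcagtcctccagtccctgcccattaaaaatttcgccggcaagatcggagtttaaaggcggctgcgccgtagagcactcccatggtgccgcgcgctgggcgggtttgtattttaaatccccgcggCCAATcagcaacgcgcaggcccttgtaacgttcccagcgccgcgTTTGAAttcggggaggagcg
Cdk1: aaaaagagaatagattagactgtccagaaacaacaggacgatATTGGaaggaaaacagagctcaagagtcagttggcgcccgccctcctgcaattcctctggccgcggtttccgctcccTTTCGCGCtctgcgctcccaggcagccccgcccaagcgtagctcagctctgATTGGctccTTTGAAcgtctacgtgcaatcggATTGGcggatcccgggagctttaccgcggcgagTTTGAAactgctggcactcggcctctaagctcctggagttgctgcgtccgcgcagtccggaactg
Top2a: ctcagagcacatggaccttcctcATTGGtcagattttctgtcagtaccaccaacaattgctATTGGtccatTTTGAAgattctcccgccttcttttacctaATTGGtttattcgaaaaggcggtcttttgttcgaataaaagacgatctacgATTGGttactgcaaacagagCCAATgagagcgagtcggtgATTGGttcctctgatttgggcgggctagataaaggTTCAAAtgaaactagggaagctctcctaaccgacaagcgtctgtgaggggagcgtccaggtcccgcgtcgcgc
In Aurka and Plk1 the CHR match lies after the annotated start, at bases 32 and 30, and in Cdk1 and Top2a it lies before it.

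Windows were found for 31 of the 38 genes, some with more than 1 start, which gave 34 windows. Of the 13 windows of G2 and mitosis genes, 9 held both CHR and CCAAT letters (69.23%), against 6.953% of all 32851 windows of the same length. Of the 12 windows of S phase genes, 5 held an E2F match (41.67%), against 1.845% of all windows, and 1 held a CHR match. Birc5, which was called lower, held no match of any of the 3 kinds. The CHR is short, and 17.89% of all windows held it, as 37.41% held CCAAT. Matches describe letters only.

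**Figure D3:**
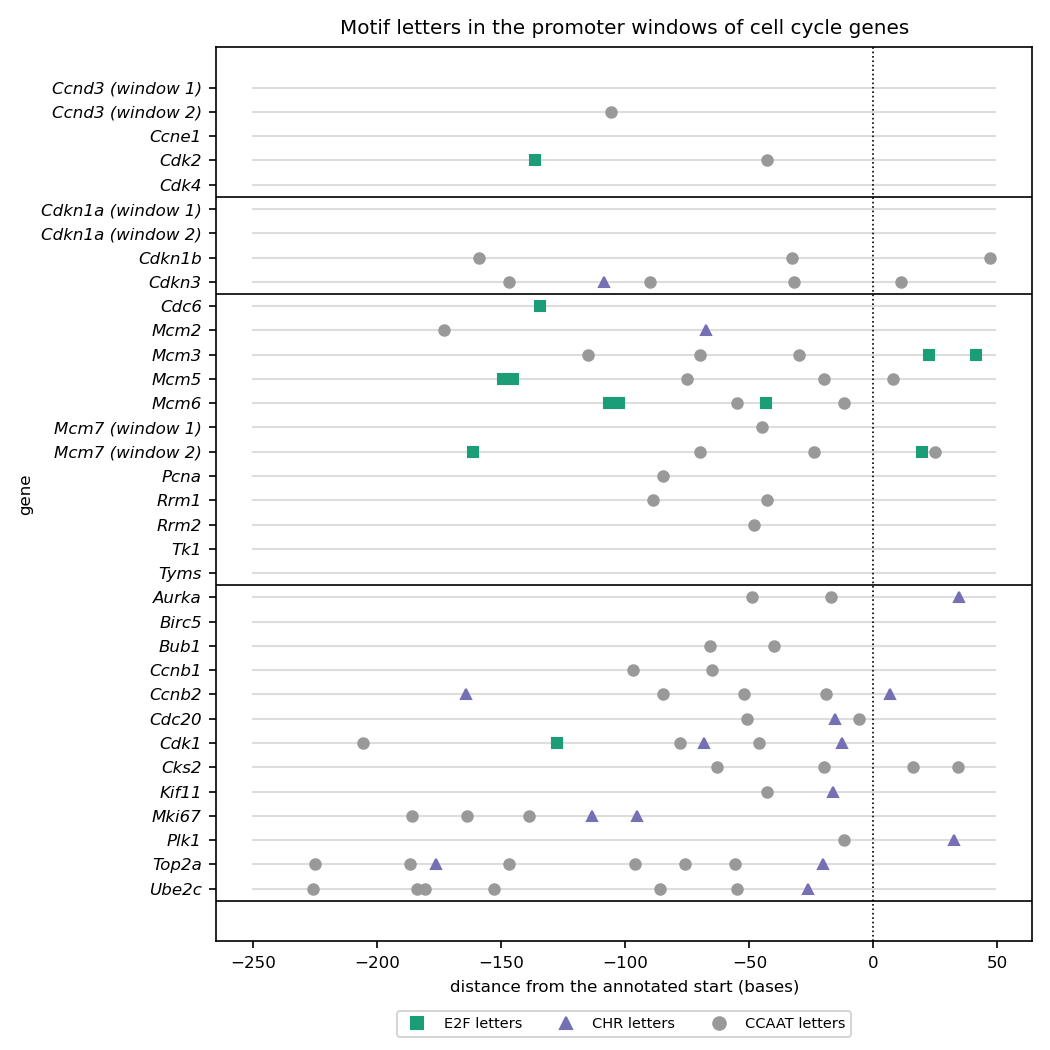
Positions of E2F (squares), CHR (triangles) and CCAAT (circles) letters, on either strand, in the promoter windows of 31 cell cycle genes, by role, with distance from the annotated start in bases. E2F letters fall mainly in S phase genes and CHR letters in G2 and mitosis genes, in 5 of 12 and 9 of 13 windows.

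The other late genes that were called had smaller differences. Birc5, the gene of survivin, a subunit of the chromosomal passenger complex, had 131.6 and 114.0 in Fxr-/- GW4064 livers and 153.3 in Fxr-/- vehicle livers, against 259.8 and 268.8 in Fxr+/+ GW4064 livers and 233.6 and 164.9 in Fxr+/+ vehicle livers. No Fxr-/- array reached any Fxr+/+ array. Its difference was -1.02 under GW4064 (SE 0.22, adjusted p = 0.0212), a 2.02-fold ratio, and -0.67 averaged (SE 0.17, adjusted p = 0.0297), and the other 2 probes gave -1.24 and -1.21 under GW4064. Cdc20, an activator of the anaphase-promoting complex, had 116.2 and 98.9 in Fxr-/- GW4064 livers and 131.4 in Fxr-/- vehicle livers, against 331.3 and 197.3 in Fxr+/+ GW4064 livers and 155.7 and 150.8 in Fxr+/+ vehicle livers. Again the genotypes did not overlap. Its difference was -1.14 under GW4064 (SE 0.26, adjusted p = 0.0252), and its other 3 probes gave -0.94, -1.38 and -0.36. Kif11, a spindle motor, had 7.8 and 22.9 in Fxr-/- GW4064 livers and 46.7 in Fxr-/- vehicle livers, against 51.5 and 52.1 in Fxr+/+ GW4064 livers and 48.9 and 37.9 in Fxr+/+ vehicle livers. The Fxr-/- vehicle array lay among the Fxr+/+ arrays and the Fxr-/- GW4064 arrays below them, with a difference of -1.16 under GW4064 (SE 0.26, adjusted p = 0.0258), at least 1.31-fold lower. Foxm1, a transcription factor of late cell cycle genes, had 52.5 and 53.9 in Fxr-/- GW4064 livers and 37.8 in Fxr-/- vehicle livers, against 71.4 and 63.9 in Fxr+/+ GW4064 livers and 60.2 and 76.2 in Fxr+/+ vehicle livers, and its difference was -0.64 under vehicle (SE 0.24, adjusted p = 0.151) and -0.27 under GW4064 (adjusted p = 0.399). The Fxr-/- arrays of Foxm1 were all below the Fxr+/+ arrays.

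The precision of these calls differed. Ccnd1 kept its calls under GW4064, under vehicle and averaged in each fit that left out 1 array, with adjusted p of at most 0.0435, as did Plk1 under GW4064 and averaged, with at most 0.0395. Aurka also kept its 3 calls, within the limits set by its background signals and by its passing the filter on Fxr+/+ arrays alone. The calls of Cdk1, Birc5 and Top2a under GW4064 were lost without any 1 of the 4 GW4064 arrays (adjusted p from 0.0503 to 0.127). That of Cdc20 was lost without 3 of these arrays and that of Kif11 without 3, with values of up to 0.146 and 0.132. Averaged over treatments, the calls of Cdk1, Top2a and Ccnd2 were also lost without any 1 of the 4 GW4064 arrays. That of Ccnd2 was lost without Fxr+/+ vehicle replicate 2 as well, and that of Birc5 without some arrays. With 1 array left out, the averaged differences ran from -1.09 to -0.66 for Cdk1 and from -1.31 to -0.77 for Top2a. They ran from -0.79 to -0.56 for Birc5 and from -0.79 to -0.55 for Ccnd2. Some calls depended on the probe. With all probes of a gene averaged, those under GW4064 were lost for Cdk1 (-0.65, adjusted p = 0.0717), whose other 2 probes were within background, and for Cdc20 (-0.96, adjusted p = 0.0722). The Cdk1 difference averaged over treatments was then -0.28 (adjusted p = 0.239). Dim genes also depended on the offset added before the log. With an offset of 100 the calls of Aurka under vehicle (-0.44, adjusted p = 0.123) and Kif11 under GW4064 (-0.40, adjusted p = 0.0656) were lost. With an offset of 1 those under GW4064 of Top2a, Cdc20 and Kif11 were lost (adjusted p = 0.0607, 0.0576 and 0.0723), as were the averaged calls of Cdkn1a, Top2a, Ccnd2 and Cdk1 (adjusted p from 0.0502 to 0.0657). Aurka and Top2a were not tested under the stricter filter. With no filter on dim genes, Ccnd1 alone of the members was called under GW4064.

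Between genotypes under GW4064, 9 members were called, 1 higher and 8 lower, in a comparison in which 14.6% of all genes tested were called, 5.48% higher and 9.15% lower. The 8 include Aurka and Kif11, whose passing the filter already favoured lower values in Fxr-/- livers. The median difference was -1.02 over the 13 G2 and mitosis genes with a probe, -0.40 over the 12 S phase genes and 0.10 over the 6 G1 genes, beside 0.08 over all genes tested. Of the 13 late genes, 9 had a difference below 0, 0 above 0 and 4 a signal of 0 or less on every array. Of the 12 S phase genes 10 had a difference below 0, and 7 had Fxr-/- arrays wholly below the Fxr+/+ arrays, as did 25.3% of all genes tested. Under vehicle, Ccnd1 was called higher, and Aurka was called lower on background signals, where 6.91% of all genes were called, 1.89% higher and 5.02% lower. The medians were -0.28 for late genes, -0.05 for S phase genes and 0.08 for G1 genes, beside 0.03 over all genes tested. The late median was -0.50 without Fxr+/+ vehicle replicate 2 and -0.049 without Fxr+/+ vehicle replicate 1. Averaged over treatments, which uses the same arrays, 3 members were called higher and 6 lower, where 22.3% of all genes were called, 9.74% higher and 12.6% lower. Aurka was among the 6.

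**Figure D4:**
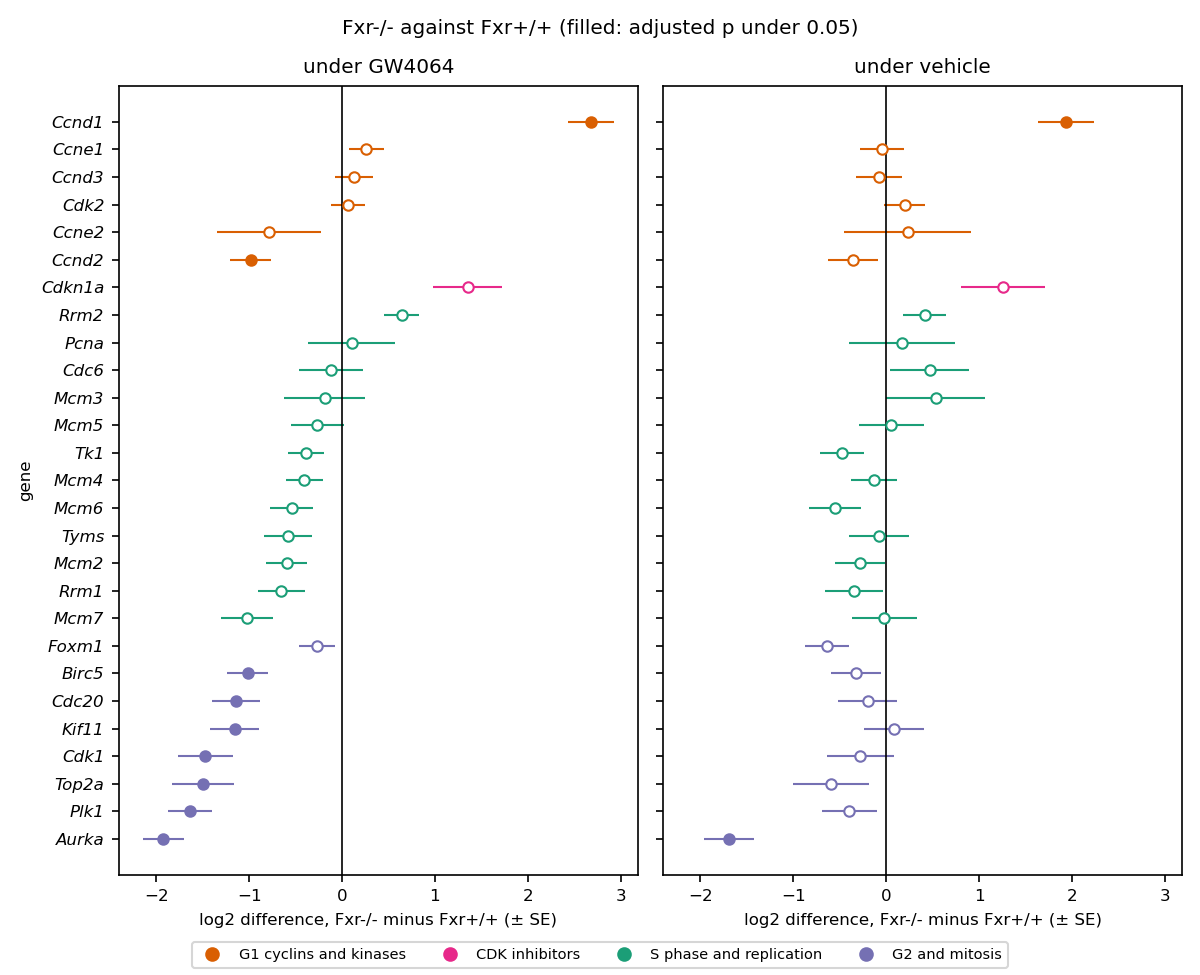
Difference on the log2 scale, Fxr-/- minus Fxr+/+, of the 27 tested cell cycle genes under GW4064 (left) and under vehicle (right). Points are fitted differences, bars are ± SE, colours give the role, and filled points have an adjusted p under 0.05: 9 genes under GW4064 and 2 under vehicle, where Aurka compares background signals. Aurka and Kif11 passed the filter only or mainly through Fxr+/+ arrays.

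None of the members was called for GW4064 against vehicle in either genotype. By limma, 0 of 27 passed in Fxr-/- livers, where 0.0717% of all genes passed, and 4 had an unadjusted p under 0.05, beside 9.77% of all genes. In Fxr+/+ livers 0 of 27 passed, where 0.0205% of all genes passed, and 5 had an unadjusted p under 0.05, beside 5.07% of all genes. The order of the arrays in the late genes is given as a description. In Fxr+/+ livers, 7 of the 8 tested had both GW4064 arrays above both vehicle arrays and 0 had them below. Of all genes tested, 15.7% had them above and 17.7% below. Ube2c, which was not tested, had them below, within background. In Fxr-/- livers, 2 of the 8 tested had both GW4064 arrays above the single vehicle array and 6 had them below. Of all genes tested, 34.8% and 32.9% did so.

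In Fxr+/+ livers the GW4064 effect was 0.77 for Aurka (SE 0.22, adjusted p = 0.783), 0.69 for Cdc20 (SE 0.26, adjusted p = 0.966) and 0.59 for Plk1 (SE 0.24, adjusted p = 0.978). It was 0.69 for Mcm7 (SE 0.28, adjusted p = 0.978) and 0.60 for Mcm5 (SE 0.29, adjusted p = 1.00). Late genes had a median effect of 0.20, with 7 of 13 above 0, 2 below and 4 at 0. The median effect was 0.34 for S phase genes, 11 of 12 of them above 0, beside -0.01 over all genes tested. In Fxr-/- livers it was -1.04 for Kif11 (SE 0.32, adjusted p = 0.330), -0.65 for Plk1 (SE 0.29, adjusted p = 0.543), 0.53 for Aurka (SE 0.27, adjusted p = 0.606), 0.43 for Mcm6 (SE 0.28, adjusted p = 0.734) and 0.28 for Mcm5 (SE 0.35, adjusted p = 0.871). The Aurka value there compares background signals. The S phase median was -0.06, with 5 of 12 above 0, beside 0.01 over all genes tested. The late median was 0, with 3 of 13 genes above 0, 6 below and 4 at 0. Those 4 had signals of 0 or less on every array and set this median, so it does not show an absence of change. The GW4064 effects share arrays with the genotype differences above and add no independent test of them.

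The test of the difference between the GW4064 effects called 0 members and 0 of all 9760 genes (605, or 6.2%, had an unadjusted p under 0.05). The lowest p of a member was that of Plk1, with a difference of -1.24 (SE 0.38, adjusted p = 0.626). Kif11 gave -1.24 (SE 0.42, adjusted p = 0.661), Cdk1 -1.19 (SE 0.47, adjusted p = 0.752) and Mcm7 -1.0 (SE 0.45, adjusted p = 0.824). Tyms gave -0.50 (SE 0.42, adjusted p = 0.941), Cdc6 -0.59 (SE 0.55, adjusted p = 0.944) and Mcm5 -0.32 (SE 0.45, adjusted p = 0.951). Averaged over genotypes, GW4064 called none of the members, where 0.0922% of all genes passed. The average was 0.65 for Aurka (SE 0.17, adjusted p = 0.288), -0.42 for Kif11 (SE 0.21, adjusted p = 0.605), 0.18 for Foxm1 (SE 0.15, adjusted p = 0.834), 0.44 for Mcm5 (SE 0.23, adjusted p = 0.628), 0.42 for Mcm6 (SE 0.18, adjusted p = 0.520) and -0.42 for Tk1 (SE 0.15, adjusted p = 0.435).

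**Figure D5:**
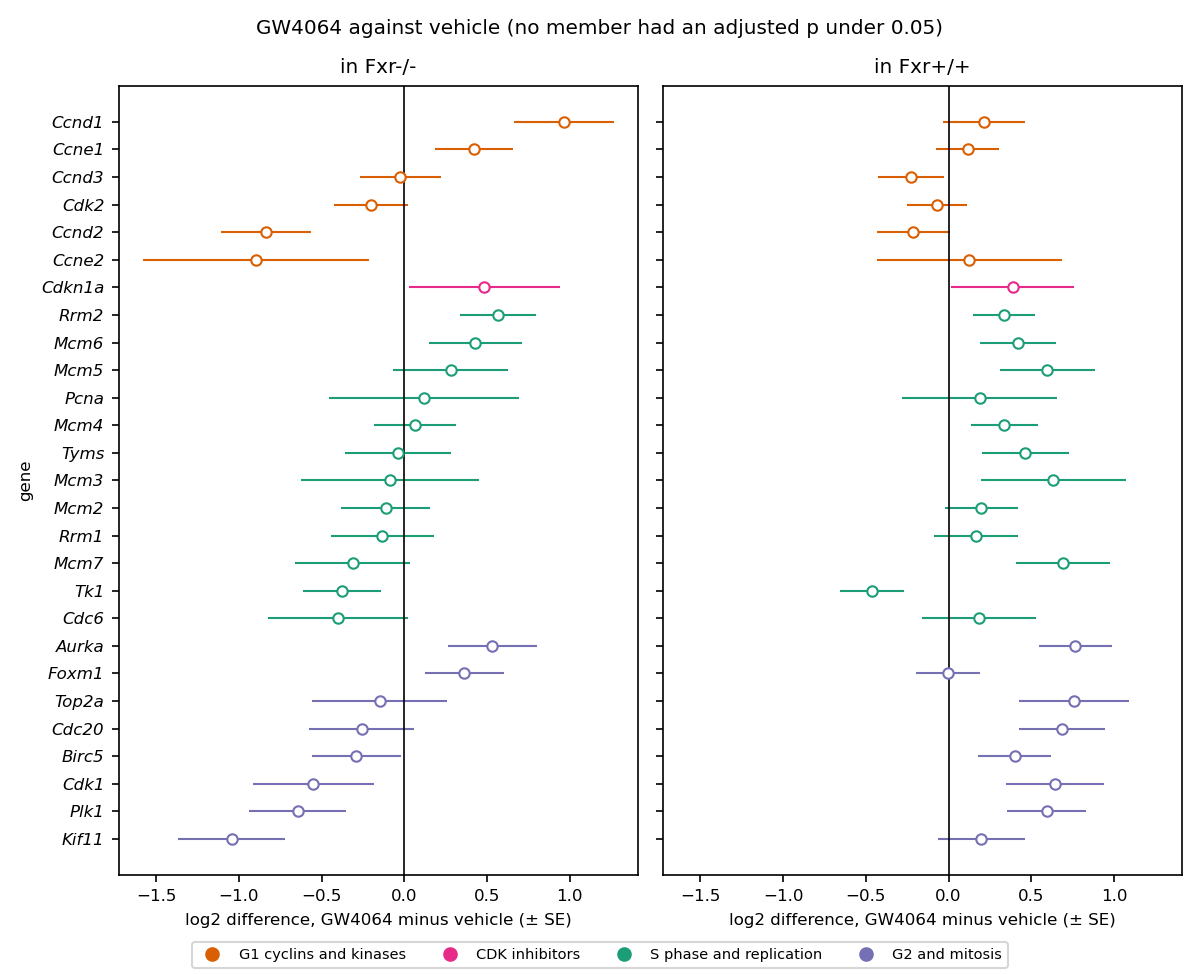
Difference on the log2 scale, GW4064 minus vehicle, of the 27 tested cell cycle genes in Fxr-/- livers and in Fxr+/+ livers. Points are fitted differences, bars are ± SE, colours give the role, and all points are open because 0 genes passed the test in either genotype.

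The pools of a group also differed among themselves. In Fxr+/+ vehicle livers, 9 of 12 S phase genes and 7 of 13 late genes were higher in replicate 1 than in replicate 2, where 43.0% of all genes tested were. Only 2 late genes were lower, and the other 4 had signals of 0 or less on every array and could not differ. The medians of replicate 1 minus replicate 2 were 0.39 and 0.04 on the log2 scale, beside -0.06 over all genes tested. Top2a (91.1 and 34.6), Cdk1 (131.8 and 64.8) and Mcm5 (412.9 and 242.3) were among those higher in replicate 1. In Fxr+/+ GW4064 livers 8 of 12 S phase genes were higher in replicate 1, with a median of 0.08.

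A wider list of 144 cell cycle genes, of which 126 had a probe and 81 were tested, gave counts in the same comparisons. Under GW4064, 2 were higher in Fxr-/- livers and 18 lower, or 2.47% and 22.2% of those tested, beside 5.48% and 9.15% of all genes. Of the 18, genes such as Kif2c, Kif23 and Cdca8 (Fxr-/- GW4064 means of 9.9, 16.8 and 2.4) could not pass the filter without Fxr+/+ arrays. Their passing it favoured lower values in Fxr-/- livers, here and in the averaged count below. Among other genes of mitosis and cytokinesis 1 was higher and 13 lower of 46 with a probe, with a median of -0.34. The 6 with the smallest p were Cdkn1c, Mcm10, Nusap1, Cenpa, Kif2c and Kif23. Cdkn1c, the gene of the CDK inhibitor p57, had 45.8 and 23.4 in Fxr-/- GW4064 livers and 70.2 in Fxr-/- vehicle livers, against 307.7 and 304.3 in Fxr+/+ GW4064 livers and 165.8 and 186.9 in Fxr+/+ vehicle livers. It thus ran opposite to Cdkn1a, with a difference of -2.71 under GW4064 (SE 0.25, adjusted p = 0.000690). Mcm10, a replication initiation factor, fell by 1.94 on the log2 scale (adjusted p = 0.00180), Nusap1, a spindle protein, by 1.56 (adjusted p = 0.00283) and Cenpa, the centromeric histone, by 1.40 (adjusted p = 0.00353). Kif2c and Kif23, mitotic kinesins, were at least 1.91-fold and at least 1.73-fold lower. Under vehicle 2 were higher, Gadd45b (2.49, adjusted p = 0.0107) and Spc25 (1.53, adjusted p = 0.0158), and 2 lower, Mcm10 (-1.29, adjusted p = 0.0342) and Bub3 (-1.14, adjusted p = 0.0343). Each of these counts was 2.47% of those tested, beside 1.89% and 5.02% of all genes. Gadd45b, a stress-induced gene, and Spc25, of the kinetochore, were also the 2 that were higher under GW4064. Gadd45b had 510.4 and 1032.9 in Fxr-/- GW4064 livers and 428.8 in Fxr-/- vehicle livers, against 196.0 and 193.7 in Fxr+/+ GW4064 livers and 69.1 and 57.5 in Fxr+/+ vehicle livers. All of its Fxr-/- arrays were above all of its Fxr+/+ arrays. Averaged over treatments 7 were higher and 21 lower, or 8.64% and 25.9% of those tested, beside 9.74% and 12.6% of all genes. GW4064 against vehicle called 0 in either genotype.

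Markers of blood and immune cells, and some of hepatocytes, endothelial and stellate cells, were among the other genes called lower in Fxr-/- livers under GW4064. Of all genes tested, 9.15% were called lower there. Summed signals of 11 neutrophil markers with a probe lay between 291.6 and 1030.6 in Fxr-/- livers, against 1516.5 to 3670.6 in Fxr+/+ livers, and 7 of the 11 were called lower under GW4064, with Cxcr2 and Mmp8 within background on every array. Of these 7, Mpo, Ngp and Retnlg exceeded the median of all probes on Fxr+/+ arrays alone. Ltf exceeded it mainly on these, with 9.2 and 12.6 in Fxr-/- GW4064 livers and 78.5 in Fxr-/- vehicle livers. The passing of Mpo, Ngp, Retnlg and Ltf thus already favoured lower values in Fxr-/- livers. In Fxr+/+ vehicle livers the neutrophil sum was 3667.1 in replicate 1 and 1516.5 in replicate 2. Sums of 12 lymphocyte markers were 288.8 to 366.9 in Fxr-/- livers, against 515.1 to 944.9 in Fxr+/+ livers, with 3 of 12 called lower under GW4064 (Cd3d, Cd3e and Cd3g) and Cd4, Cd8a, Cd79a, Ms4a1, Gzma, Gzmb and Ptprc within background. Sums of 11 macrophage markers were 3483.5 to 5935.5 in Fxr-/- livers, against 5212.8 to 8888.3 in Fxr+/+ livers, with Cd5l and Timd4 within background. Only 1 of the 11, C1qa, was called lower under GW4064, near the share of all genes. Sums of 7 red cell precursor markers were 12838.6 to 19116.3 in Fxr-/- livers, against 17433.2 to 29318.8 in Fxr+/+ livers, with Gata1 within background and 2 of 7 called lower under GW4064 (Alas2 and Klf1). Hba-a1, an alpha globin, made up most of this sum, with 11683.2 to 26185.7 over the 7 arrays. Alas2, the erythroid enzyme of heme synthesis, had 206.1 and 253.6 in Fxr-/- GW4064 livers and 196.9 in Fxr-/- vehicle livers, against 1053.9 and 1557.6 in Fxr+/+ GW4064 livers and 1407.3 and 2303.0 in Fxr+/+ vehicle livers. Its difference was -2.41 under GW4064 (SE 0.30, adjusted p = 0.00233) and -3.09 under vehicle (SE 0.37, adjusted p = 0.00383). Klf1, an erythroid transcription factor, gave -1.24 under GW4064 (SE 0.24, adjusted p = 0.0151). Tfrc, of the same list, ran the other way, with 790.2 to 823.6 in Fxr-/- livers, against 553.8 to 783.3 in Fxr+/+ livers. Hepatocyte sums were 78476.3 to 118829 in Fxr-/- livers, against 117974 to 134867 in Fxr+/+ livers. Serpina1a (-1.66, adjusted p = 0.00197) and Apoa2 (-1.35, adjusted p = 0.0327) were called lower under GW4064. Hepatocyte markers did not all run this way. Cps1 was higher, with 16798.9 to 22291.4 in Fxr-/- livers, against 11500.1 to 16053.1 in Fxr+/+ livers, and Apoa1 overlapped between genotypes. Endothelial sums were 2476.4 to 4915 in Fxr-/- livers, against 3998.1 to 4608.1 in Fxr+/+ livers. Stellate cell sums were 5992.9 to 8492.7 in Fxr-/- livers, against 5657.7 to 7776.2 in Fxr+/+ livers. Endothelial Cdh5 (-1.40) and stellate Timp1 (-1.60) were called lower under GW4064, but exceeded the median of all probes on Fxr+/+ arrays alone. Bile duct sums were 274.9 to 314.5 in Fxr-/- livers, against 212.5 to 276.5 in Fxr+/+ livers, with Sox9 called higher under GW4064 (1.04, adjusted p = 0.0377). The part of all these cell types in the cell cycle differences was not tested.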

How the data were processed

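Livers of 8 pools were profiled on Illumina bead arrays, and RNA was prepared with Trizol and labelled with biotin, per the labels' protocols. The authors' values in 7 columns are linear probe intensities with background subtracted, since 31.5% to 31.6% of each column was below 0. These columns shared the same lowest (-39.5) and highest (39228.8) value, and their sorted values differed by at most 0.5. Their distributions were thus already equal, as after quantile normalization. The sources used here name no software for these steps. For Fxr-/- vehicle replicate 2 the deposited values are whole numbers of unknown unit with a median of 39 and were not used, although the design had placed all 8 arrays in the fit. Of 25697 probes, the platform annotation gives 1 symbol to 23978, several to 0 and none to 1719. 16 had no Entrez match in RefSeq (GRCm38.p6) and kept their symbol.

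Negative signals were set to 0 and 16 was added before taking log2, without added normalization. Differences and folds refer to this scale, which compresses those of dim genes. A gene was represented by its probe of highest mean, and tested where this exceeded the array's median (percentile 50) on at least 2 arrays. A linear model with a mean per group was fitted to the 7 arrays (limma 3.58.1 under R 4.3.3). It had 3 residual and 4.56 prior degrees of freedom and was tested on simulated data. Bounds ("at least N-fold") set signals under 39.5 to 39.5. Arrays have no read depth, and their number limits the precision.

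The members and lists were chosen with earlier results of these data known. Full values are given for Ccnd1, Cdkn1a and Mcm5, for each called member and, per role group and comparison, for the 3 members with the smallest p. Of the wider list at most 6 called genes per comparison, smallest p first, are named, besides called sets of 2. Alternatives were offsets of 1 and 100, no filter, a stricter filter, median centring, the mean of all probes, a mean-variance trend, only the arrays compared, a replicate block and leaving out each array. Quantile normalization was also run, but on columns of equal distribution it could change little and so checks little. Figures were drawn with matplotlib 3.10.9.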

Additional observations from a re-analysis of the deposited data

Results flagged for a closer look

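In 6 late genes the GW4064 arrays lay on opposite sides of the vehicle arrays in the 2 genotypes. They lay below the single vehicle array in Fxr-/- livers and above both vehicle arrays in Fxr+/+ livers. Of all genes tested, 32.9% had the first order in Fxr-/- livers and 15.7% the second in Fxr+/+ livers. The share of all genes with both orders together was not computed, so the 6 are given as a description. The difference between the GW4064 effects, Fxr-/- minus Fxr+/+, was -1.24 for Plk1 (limma, adjusted p = 0.626), -1.24 for Kif11 (0.661), -1.19 for Cdk1 (0.752), -0.94 for Cdc20 (0.816), -0.69 for Birc5 (0.870) and -0.91 for Top2a (0.897). None of these passed the test of the difference. In Birc5 the other 2 probes gave GW4064 effects of 0.52 and 0.54 in Fxr-/- livers, against -0.29 for the probe used, so that the opposite direction held on 1 of 3 probes. The other probe of Cdc20 that was above background on every array gave 0.09 there, against -0.26 for the probe used.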

How the results depend on the processing

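GW4064 against vehicle, the difference of its effects and its average called 0 members under every alternative run. Under vehicle, 2 members were called between genotypes, but 1 with an offset of 100, 1 with the stricter filter and 0 with no filter. Under GW4064, 9 were called, but 1 with no filter, 6 with an offset of 1 and 7 to 11 under the other settings without a block. Averaged over treatments 9 were called, but 5 with an offset of 1, 3 with no filter and 8 to 12 under the others. Without a filter the fit took in 16593 genes, of which 2906 were at 0 or below on every array, and the prior degrees of freedom were 0.439, against 4.56. Over all genes it called 383 under GW4064, against 1428, 361 for GW4064 in Fxr-/- livers, against 7, 303 for the difference of effects, against 0, and 1542 averaged, against 2179. An offset of 1 called 927 genes under GW4064. Leaving out 1 array gave 3 to 11 members under GW4064, 3 to 8 averaged and 2 under vehicle. The fewest came without Fxr+/+ GW4064 replicate 1 (585 of all genes under GW4064), and 4 came without Fxr+/+ GW4064 replicate 2 and without either Fxr-/- GW4064 replicate.

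With all probes of a gene averaged, the S phase median was 0.19 for GW4064 in Fxr+/+ livers and -0.24 between genotypes under GW4064, where the late median was -0.65, and -0.40 with an offset of 100. Leaving out 1 array gave late medians of -0.50 to -0.049 between genotypes under vehicle, and S phase medians of 0.17 to 0.38 for GW4064 in Fxr+/+ livers and -0.32 to -0.047 between genotypes under vehicle, with the lowest in both cases without Fxr+/+ vehicle replicate 2, and G1 medians of -0.11 to 0.14 under vehicle. Uncalled values that changed sign when 1 array was left out were Ccnd1 (-0.043 to 0.48) and Ccnd2 (-0.45 to 0.020) for GW4064 in Fxr+/+ livers, Cdkn1a (-0.32 to 0.51) and Mcm5 (-0.68 to 0.047) for the difference of effects, and Mcm5 between genotypes under vehicle (-0.31 to 0.42) and averaged (-0.29 to 0.077). Samples share only a replicate number: differences between replicates correlated at 0.232 to 0.375 between groups, with 2 numbers per group. The replicate block gave 13 members under GW4064, adding Cdkn1a, Mcm7, Rrm2 and Tyms, 11 averaged, adding Cdc20 and Tyms, and 2 under vehicle. With it the S phase median was 0.0926 for GW4064 in Fxr-/- livers and -0.19 under vehicle, Cdkn1a gave -0.027 for the difference of effects and Mcm5 -0.17 under vehicle. Of the single genes named, 725 values under other settings kept direction and side of the threshold, 29 lost the call, 15 gained one and 2 changed sign, and with 1 array left out the counts were 457, 45, 6 and 9. The causes of these changes were not tested. Signals near background limit what can be said of the late genes.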
